A study of Homo sapiens with 18 samples.

Results

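The LPS response of THP-1 cells that received no siRNA was taken as 6 libraries, 3 of unstimulated cells (replicates 1 to 3) and 3 of cells given LPS (replicates 4 to 6), out of 18 libraries in the series. Members were all genes that passed a filter on low counts, 16678 of the 63677 genes in the count table. THP-1 is an established human monocytic leukaemia line that grows in suspension. The condition is called WT by the study, and 72 h after the transfection step its cells were given LPS from Escherichia coli at 10 ng/ml or medium alone for 4 h by the labels, although a supplementary legend gives a shorter time. The description of the series calls WT cells untreated, whereas the treatment protocol has them receive the transfection mix without siRNA, so exposure to the transfection reagent is not settled by the labels. The other 12 libraries, used here for the shared estimate of spread and for one comparison, came from cells transfected with a scrambled siRNA (SCR) or an siRNA against TRAFD1 (KD), each at 25 nM and each with and without LPS. All libraries are of 1 cell line grown in triplicate, so the p-values measure the spread between these cultures and not between donors.

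Lipopolysaccharide, the outer-membrane glycolipid of Gram-negative bacteria, is bound by CD14 and MD-2 (the product of LY96) and sensed by TLR4. The receptor signals through one pair of adaptors, MyD88 and TIRAP, to NF-kB and MAP kinases, and through another, TRIF (the product of TICAM1) and TRAM, to interferon regulatory factors. Monocytes answer with cytokines and chemokines, and also with inhibitors of the same pathway, among them IkB proteins, the ubiquitin-editing protein A20 and RNases that degrade cytokine mRNA. THP-1 cells that have not been differentiated carry little surface CD14 and give a weaker response than primary monocytes.

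WT libraries held 10094675 to 21900309 counts. At a floor of 3 counts, the limit that a count of 0 allows, this corresponds to 0.133 to 0.294 CPM, and the floor covers counting error only. Expression is given as CPM, the counts of a gene relative to those of its library, with library totals scaled by the trimmed mean of M-values. QuantSeq reads the 3′ ends of polyadenylated transcripts, and levels are not compared between genes. The label of the cells was checked against monocyte markers, and all 15 were detected, with a summed level of 4300 to 5230 CPM without LPS and 4850 to 5010 CPM with LPS. MPO, a granule enzyme, was low at 2.02 CPM without LPS, and CD14 stood at 16.2 CPM. Markers of T and NK cells summed to 2.04 to 4.13 CPM in the 6 libraries, with 3 of 9 at 0 throughout, those of erythroid cells and megakaryocytes to 0.68 to 1.63 CPM, with 5 of 8 at 0, and those of epithelial cells and fibroblasts to 3.6 to 5.64 CPM, with 3 of 9 at 0. B and plasma cell markers summed to 30.0 to 35.4 CPM without LPS and 37.4 to 45.2 CPM with LPS, nearly all of it PAX5. Mitochondrial genes took 3.19% to 3.37% of the counts without LPS and 3.82% to 4.46% with LPS, so this share moved with the groups, and its part in the results below was not tested.

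LPS changed 2380 of the 16678 genes at an adjusted p under 0.05, which is 14.3% of the genes tested. Of these, 1169 were higher (7.01%) and 1211 were lower (7.26%). The counts of list members below are to be read beside these shares. The 2 directions were alike in number but not in size. Among the higher genes 448 changed more than 2-fold, 75 more than 8-fold and 16 more than 32-fold, whereas among the lower genes 249 changed more than 2-fold, 6 more than 8-fold and 1 more than 32-fold. The median log2 fold change was 0.81 for higher and -0.64 for lower genes. The 1169 higher genes together took 10.1% to 10.4% of all CPM in unstimulated libraries and 16.0% to 17.4% with LPS. For the lower genes, the share went from 10.4% to 10.7% without LPS to 6.99% to 7.31% with LPS. The 75 genes that rose more than 8-fold summed to 218, 225 and 241 CPM without LPS and to 4541, 4752 and 4258 CPM with LPS. In 5428 genes (32.5%) the 3 unstimulated and the 3 LPS libraries did not overlap, and 2332 of the 2380 called genes were among them.

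**Figure D1:**
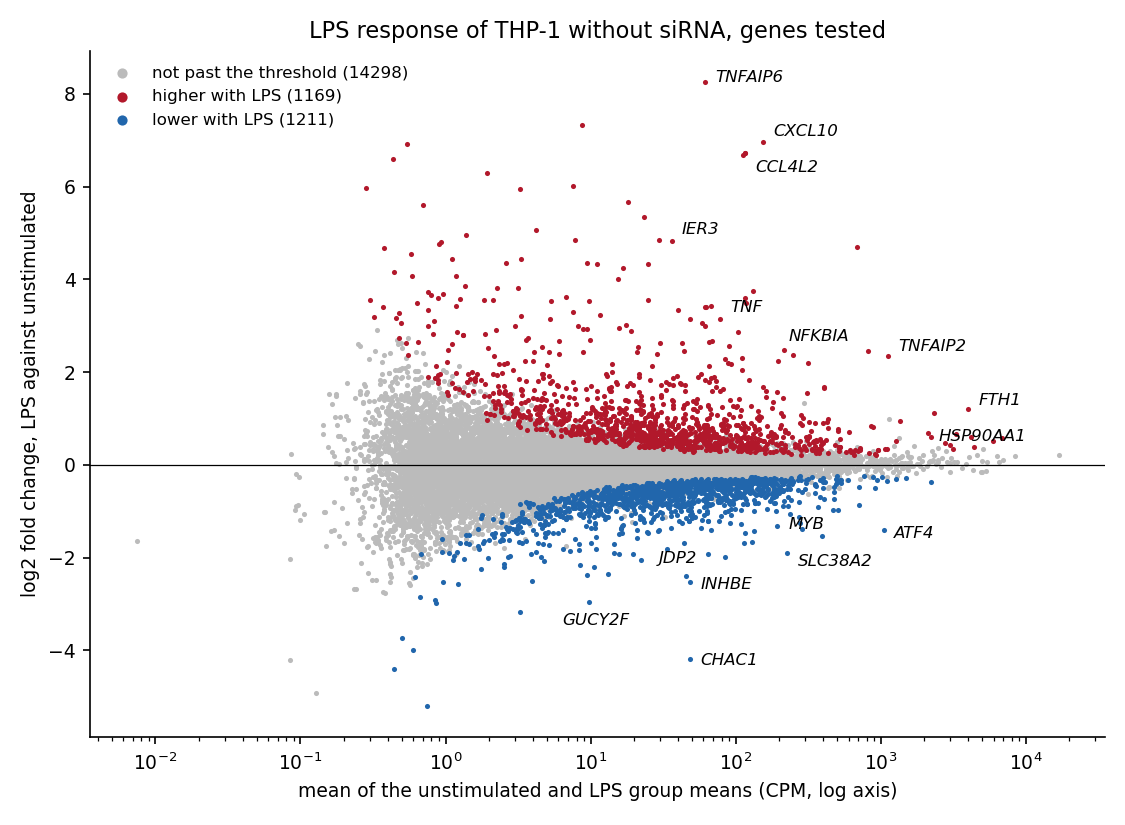
Log2 fold change of LPS against unstimulated WT cells for each gene tested (vertical axis) against the mean of the 2 group means in CPM (horizontal log axis); red points are the 1169 genes called higher, blue points the 1211 called lower and grey points the 14298 not past the threshold. The higher genes reach log2 fold changes of 8.26 at TNFAIP6 and CHAC1 lies at -4.18 among the lower genes.

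The gene with the largest rise was TNFAIP6, which encodes TSG-6, a secreted hyaluronan-binding protein. It lies on chromosome 2 of GRCh37 from 152214106 to 152236560. Its level was 0.452, 0.363 and 0.356 CPM in the unstimulated libraries and 137, 129 and 102 CPM with LPS. It was thus barely above the floor in every unstimulated library and abundant in each LPS library (log2 fold change 8.26 ± 0.25 (SE), adjusted p = 8.27e-16). SHROOM3, an actin-binding protein of epithelial cells, went from 0.113, 0.0908 and 0.0889 CPM to 20.4, 16.8 and 14.5 CPM (log2 fold change 7.34 ± 0.36 (SE), adjusted p = 1.41e-11). Its unstimulated values rest on a few reads each. Among the lower genes that reached 10 CPM in unstimulated cells, the largest changes were those of CHAC1, GUCY2F, INHBE, JDP2 and FRAT1, with log2 fold changes of -4.18 ± 0.20, -2.95 ± 0.31, -2.53 ± 0.19, -2.39 ± 0.23 and -2.35 ± 0.25 (± is SE, n = 3 per group, and values given with it after a gene name, here and below, are log2 fold changes). INHBE encodes an activin subunit, GUCY2F a guanylyl cyclase of photoreceptors and FRAT1 an activator of Wnt signalling. For this ranking only genes with a symbol and without overlap between the libraries of the 2 groups were considered. The lack of overlap in these 5 genes was thus set by the choice.

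Receptor and adaptor genes moved in both directions. Of 28 tested genes of the LPS receptor complex and its adaptors, 6 rose and 2 fell, and the median log2 fold change was 0.03, against -0.03 over all genes. The called members were 28.6% of those tested, against 14.3% of all genes. The 2 that fell were TLR4, the sensor, and CD14, which binds LPS. TLR4 was at 20.1, 12.9 and 13.1 CPM without LPS and 8.85, 6.52 and 6.46 CPM with LPS, groups that do not overlap (log2 fold change -1.08 ± 0.22 (SE), adjusted p = 0.00188). CD14 went from 10.9, 16.9 and 20.7 CPM to 10.1, 10.4 and 8.52 CPM, also without overlap, although replicate 1 of the unstimulated cells lay close to the LPS libraries (log2 fold change -0.74 ± 0.21 (SE), adjusted p = 0.0224). The call on CD14 was lost in limma voom. LY96, the co-receptor MD-2, was measured at 1.13, 1.27 and 1.29 CPM and 2.04, 2.01 and 0.490 CPM, too few counts to resolve a difference (adjusted p = 0.767). TICAM1 was at 68.6, 92.3 and 59.1 CPM and rose to 143, 139 and 117 CPM (log2 fold change 0.87 ± 0.17 (SE), adjusted p = 0.00123). TRAF3, shared by the TRIF arm and non-canonical NF-kB signalling, rose by 0.86 ± 0.10, the ubiquitin ligase PELI1 by 1.38 ± 0.18, IRAK2 by 1.71 ± 0.39, TLR2 by 0.64 ± 0.14 and IRAK3, an inhibitory kinase of the family, by 0.46 ± 0.11. MYD88 did not pass the test, with 32.1, 27.3 and 25.9 CPM against 41.7, 53.6 and 28.2 CPM, where LPS replicate 6 lay within the unstimulated range (adjusted p = 0.137). The gene targeted elsewhere in the series, TRAFD1, was at 22.2, 21.2 and 18.3 CPM without and 19.2, 20.3 and 11.6 CPM with LPS in WT cells, with LPS replicate 6 lowest (adjusted p = 0.491).

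NF-kB subunits and their inhibitors were higher with LPS almost throughout. Of 16 tested genes, 11 rose and 1 fell, and the list's median log2 fold change was 1.43. NFKBIA, the inhibitor IkBα and a direct NF-kB target, had 253, 238 and 266 CPM without LPS and 1448, 1351 and 1351 CPM with LPS. The LPS libraries lay 5.49-fold above the others on average, with little spread in either group (log2 fold change 2.46 ± 0.09 (SE), adjusted p = 4.51e-14). NFKB1, the precursor of p50, went from 27.2, 28.2 and 23.3 CPM to 152, 159.7 and 149 CPM (log2 fold change 2.55 ± 0.12 (SE), adjusted p = 8.86e-13). NFKB2, the p52 precursor, rose by 2.39 ± 0.13, RELB by 2.37 ± 0.17, REL by 1.37 ± 0.17 and RELA, the p65 subunit, by 0.37 ± 0.12. BCL3, an atypical IkB protein that acts in the nucleus, rose by 2.86 ± 0.17, NFKBIZ, another nuclear IkB protein, by 3.24 ± 0.22, and NFKBIE and NFKBIB by 1.76 ± 0.11 and 0.84 ± 0.17. IKBKB, the kinase that marks IkB for degradation, was the member that fell (log2 fold change -0.40 ± 0.10 (SE), adjusted p = 0.00718). The IDs that could be paired with IKBKG and IKBKE had 0 counts in all 6 libraries and were not tested. Counts of these genes under an ID without a symbol were not looked for, so the 0 is not a measure of their expression.

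Negative regulators further along the pathway were also higher in part. Among 13 tested ubiquitin-editing brakes, 6 rose and 1 fell. TNFAIP3, which encodes A20, was at 12.8, 11.4 and 10.4 CPM without LPS and 124, 119 and 129.6 CPM with it, 10.8-fold higher (log2 fold change 3.43 ± 0.17 (SE), adjusted p = 4.05e-12). Its partner TNIP1 had 64.8, 68.3 and 69.6 CPM and 327, 319.7 and 318 CPM (log2 fold change 2.25 ± 0.09 (SE), adjusted p = 2.62e-13). TNIP3 and TRAF1 rose by 3.31 ± 0.28 and 2.74 ± 0.34, the deubiquitinase CYLD by 0.78 ± 0.10 and USP18 by 0.34 ± 0.11, and TAX1BP1, an adaptor of A20, fell, at -0.42 ± 0.08. Of 11 regulators of cytokine mRNA stability, 5 rose and 0 fell. ZC3H12A, the RNase Regnase-1, was at 17.7, 13.98 and 20.6 CPM and then 217, 204 and 218 CPM (log2 fold change 3.60 ± 0.14 (SE), adjusted p = 5.92e-14), while its relatives ZC3H12C and ZC3H12D rose by 1.64 ± 0.22 and 1.10 ± 0.24. BTG2 rose by 1.95 ± 0.19 and ZFP36, tristetraprolin, by 1.25 ± 0.32. Among MAP kinase phosphatases and related feedback genes, 3 of 13 were higher (DUSP2, DUSP4 and DUSP8, by 1.49 ± 0.25, 1.21 ± 0.12 and 1.26 ± 0.32) and 0 lower. This is 23.1% called, against 14.3% of all genes. Of the 7 tested SOCS inhibitors, 0 passed the test in edgeR or limma voom and 1 in DESeq2, 2 had an unadjusted p under 0.05 in edgeR, and SOCS3 had 2.05 CPM without and 4.71 CPM with LPS (adjusted p = 0.0732).

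The bases around the start of NFKBIA, TNFAIP3 and the chemokine gene CXCL10 are shown because they carry matches to the kB consensus, the letters recognised by NF-kB. The sequences are RefSeq promoters on GRCh38.p14, from 250 bases before to 50 bases after the start, read 5′ to 3′ on the gene's strand, and capitals mark the match. The match in NFKBIA begins at position -81 from the start (chr14:35404700-35404999, minus strand), those in TNFAIP3 at -67 and -55 (chr6:137867009-137867308, plus strand) and those in CXCL10 at -177 and -122 (chr4:76023448-76023747, minus strand).
NFKBIA: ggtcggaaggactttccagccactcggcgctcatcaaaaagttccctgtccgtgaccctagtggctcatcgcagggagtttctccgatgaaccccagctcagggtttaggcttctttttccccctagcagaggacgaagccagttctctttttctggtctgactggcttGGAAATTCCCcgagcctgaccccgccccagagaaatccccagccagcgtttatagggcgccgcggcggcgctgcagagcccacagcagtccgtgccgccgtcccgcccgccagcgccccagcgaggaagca
TNFAIP3: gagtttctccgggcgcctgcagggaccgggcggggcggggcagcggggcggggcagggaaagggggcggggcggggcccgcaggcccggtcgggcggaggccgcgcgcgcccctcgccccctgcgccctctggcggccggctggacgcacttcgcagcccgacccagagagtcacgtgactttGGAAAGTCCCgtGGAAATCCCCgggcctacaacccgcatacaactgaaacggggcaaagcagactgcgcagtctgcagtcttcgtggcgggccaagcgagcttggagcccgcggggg
CXCL10: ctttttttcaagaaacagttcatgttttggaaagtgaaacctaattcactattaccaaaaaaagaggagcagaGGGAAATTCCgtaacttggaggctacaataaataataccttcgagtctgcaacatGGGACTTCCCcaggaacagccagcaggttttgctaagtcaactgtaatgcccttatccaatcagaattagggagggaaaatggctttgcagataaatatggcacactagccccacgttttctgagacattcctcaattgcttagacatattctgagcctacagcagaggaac
A match on either strand was present in 10.8% of all 27305 RefSeq promoters of this length and in 12.9% of the 10721 that could be matched by symbol to a tested gene. It was present in 17 of the 49 matched promoters (34.7%) of genes more than 8-fold higher, in 17.8% of 765 promoters of all higher genes and in 13.1% of 921 promoters of lower genes. The interferon-stimulated response element core, searched on both strands, was found in 2.97% of promoters of tested genes, in 6.41% of those of higher and 1.95% of those of lower genes, and the CXCL10 promoter holds one, at position -221, upstream of both kB matches and overlapping neither. A match is a description of letters and not of a site in use.

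Of 29 tested cytokines and growth factors, 15 rose and 3 fell (median log2 fold change 0.87). TNF was at 12.7, 18.7 and 16.2 CPM in unstimulated cells and 132, 153 and 137 CPM with LPS (log2 fold change 3.16 ± 0.16 (SE), adjusted p = 4.28e-12). IL1B went from 1.64, 1.73 and 2.00 CPM to 32.0, 36.3 and 19.4 CPM, with LPS replicate 6 lowest of the stimulated libraries and still far above every unstimulated one (log2 fold change 4.01 ± 0.27 (SE), adjusted p = 3.53e-10). LTB, a membrane-anchored lymphotoxin, rose from 64.7, 60.8 and 71.1 CPM to 349.9, 346 and 405 CPM (log2 fold change 2.48 ± 0.12 (SE), adjusted p = 2.82e-12). EBI3, a subunit of IL-27 and IL-35, was at 0.0565, 0 and 0.178 CPM and then 7.69, 8.44 and 3.23 CPM, so its fold rests on 5 counts over the 3 unstimulated libraries. IL1A had 0 counts over the 3 unstimulated libraries and 28 over the LPS libraries, at least 14.7-fold higher against a floor of 3 counts over the group. Smaller rises were those of IL23A (1.62 ± 0.19), the receptor antagonist IL1RN (1.28 ± 0.14), CSF1 (1.75 ± 0.30) and TNFSF10, which encodes TRAIL (0.87 ± 0.14). The 3 that fell were IL16, GDF15 and TNFSF9, at -1.36 ± 0.32, -1.12 ± 0.20 and -0.47 ± 0.14. IL6 had counts of 0, 0 and 0 without LPS and 1, 0 and 0 with LPS, and IL10 had 0, 2 and 2 against 4, 1 and 1, so that neither could be tested and no induction of either was detectable at this depth. IFNB1, the TRIF-dependent type I interferon, was at 1.30, 0.272 and 0.311 CPM and 0.778, 1.34 and 0.294 CPM, with overlapping groups (adjusted p = 0.84).

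Of 14 tested chemokines, 12 rose and 0 fell, with a median log2 fold change of 4.33, the highest of the 32 lists. CXCL10, a ligand of CXCR3 induced by interferons and NF-kB, was at 3.73, 0.545 and 2.49 CPM without LPS and at 289, 318 and 305 CPM with LPS. The unstimulated libraries varied several-fold among themselves, and the LPS libraries differed by little (log2 fold change 6.96 ± 0.28 (SE), adjusted p = 1.40e-13). CXCL8, the neutrophil attractant interleukin-8, went from 1.41, 0.182 and 0.845 CPM to 19.7, 21.7 and 12.7 CPM (log2 fold change 4.34 ± 0.49 (SE), adjusted p = 1.30e-06). CXCL1, CXCL2 and CXCL3, which share its receptor, rose by 6.02 ± 0.46, 4.45 ± 0.58 and 2.80 ± 0.67. CCL2, which draws monocytes through CCR2, rose by 2.99 ± 0.21 and CCL20 by 5.08 ± 0.79. CCL4L2 was at 2.49, 1.45 and 2.36 CPM and then 229, 259 and 205 CPM (log2 fold change 6.72 ± 0.20 (SE), adjusted p = 8.27e-16), and CCL4L1 gave nearly the same values in every library. These are near-identical copies of one gene family whose reads cannot be assigned with certainty, although both are counted among the 12. CCL3L1, of the neighbouring family, went from a mean of 10.7 CPM to 106, 114 and 119 CPM (log2 fold change 3.41 ± 0.17 (SE), adjusted p = 2.73e-12), with the same reservation. CXCL11, another CXCR3 ligand, rose by 4.32 ± 0.24, and CCL22 and CXCL16 did not pass the test.

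**Figure D2:**
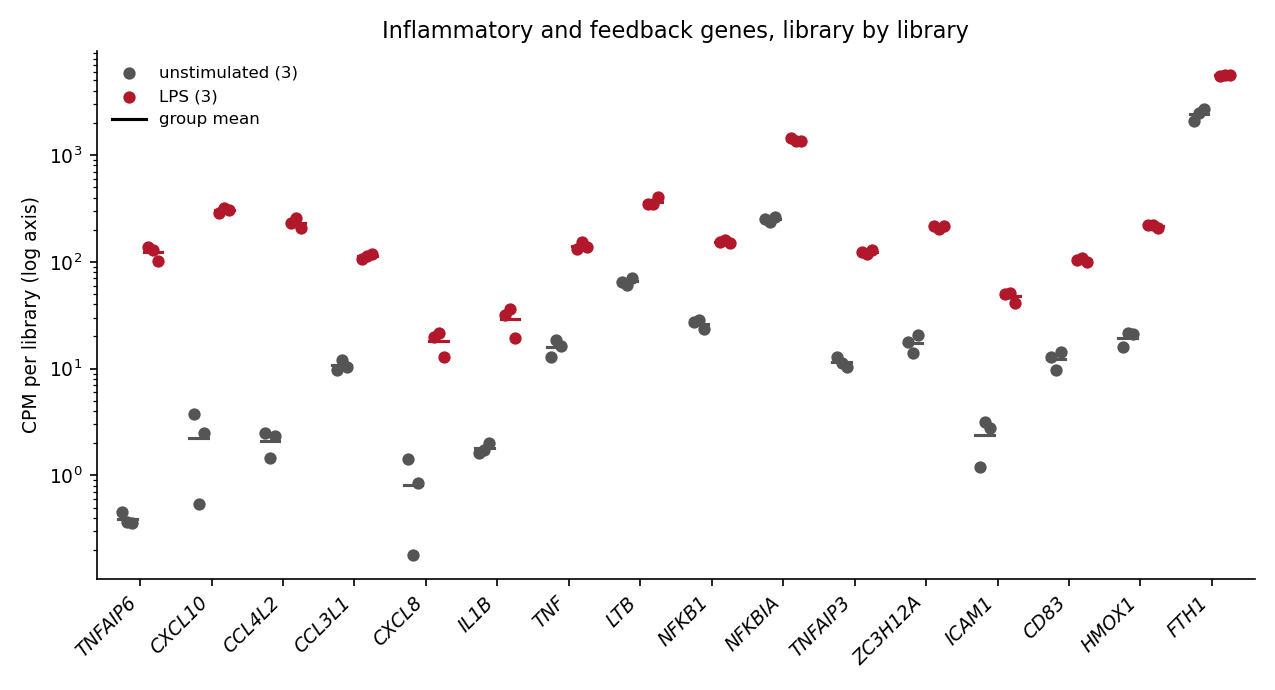
Level of 16 genes named in the text in each WT library (points, CPM on a log axis), with grey points for the 3 unstimulated and red points for the 3 LPS libraries, and bars at the group means. The groups do not overlap in any of the 16, and FTH1 moves from 2103 to 2701 CPM up to 5539.7 to 5647 CPM. The 16 were picked from called genes, of which 2332 of 2380 do not overlap, against 32.5% of all genes. Their lack of overlap was thus nearly set by the choice.

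Chemokine and cytokine receptors moved both ways, with 9 of 30 higher and 7 lower (53.3% called, against 14.3% of all genes). CCR7, which guides cells to lymph nodes, had 0 counts in all 3 unstimulated libraries and 8, 17 and 11 with LPS, at least 18.9-fold higher against a floor of 3 counts over the group. Its ligand CCL19 had 2, 0 and 0 counts in unstimulated cells and 32, 49 and 43 after LPS (adjusted p = 1.58e-05). IFNGR2, the signalling chain of the interferon-γ receptor, was at 107, 102 and 110.3 CPM and then 255, 259.6 and 233 CPM (log2 fold change 1.23 ± 0.08 (SE), adjusted p = 3.13e-10), and IL7R and IL10RA rose by 1.64 ± 0.31 and 0.76 ± 0.13. The receptors that fell included those that steer monocytes in blood. CCR2 was at 130.1, 120.4 and 121 CPM without LPS and 65.9, 66.3 and 73.8 CPM with LPS (log2 fold change -0.85 ± 0.09 (SE), adjusted p = 1.02e-06). CX3CR1, the fractalkine receptor, went from 57.0, 55.0 and 58.4 CPM to 27.7, 22.9 and 23.5 CPM (log2 fold change -1.20 ± 0.11 (SE), adjusted p = 1.12e-07). CXCR4 and CXCR2 fell, at -0.88 ± 0.16 and -1.18 ± 0.34, TNFRSF1B and CSF2RA at -0.49 ± 0.13 and -0.59 ± 0.17, and IL6R at -0.58 ± 0.08.

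Among 31 immediate-early and stimulus-induced transcription factors, 10 rose and 3 fell. IER3 was at 1.81, 3.18 and 2.49 CPM without and 75.7, 64.8 and 68.8 CPM with LPS (log2 fold change 4.84 ± 0.31 (SE), adjusted p = 1.56e-10). JUNB and JUN, of the AP-1 family, rose by 1.27 ± 0.12 and 1.00 ± 0.12, EGR2 by 2.43 ± 0.36, FOSL1 by 1.42 ± 0.25 and ATF3 by 1.11 ± 0.17. FOSL2 moved the other way, from 104, 94.2 and 94.5 CPM to 36.3, 38.5 and 35.7 CPM (log2 fold change -1.41 ± 0.13 (SE), adjusted p = 5.66e-08), and CEBPB fell, at -0.64 ± 0.13. FOS had 8.78 CPM without and 8.60 CPM with LPS (adjusted p = 0.972). Factors of the myeloid lineage also changed. Of 23 tested lineage and granule genes, 3 were higher and 5 lower (34.8% called, against 14.3% of all genes). POU2F2, the octamer-binding factor OCT2, rose from 104, 109 and 123 CPM to 525, 513 and 509 CPM (log2 fold change 2.20 ± 0.10 (SE), adjusted p = 8.86e-13). GFI1, a transcriptional repressor that acts in granulocyte differentiation, was at 439, 406 and 400.5 CPM and fell to 162, 151 and 164 CPM (log2 fold change -1.39 ± 0.08 (SE), adjusted p = 8.79e-11). MYB, a factor of immature progenitors, fell from 717, 707 and 607 CPM to 331, 354 and 347 CPM (log2 fold change -0.98 ± 0.09 (SE), adjusted p = 3.90e-08), and FLI1, ID2 and S100A4 fell, at -0.90 ± 0.12, -0.62 ± 0.12 and -0.50 ± 0.12. Granule genes such as ELANE, CTSG, PRTN3 and AZU1 did not pass the test.

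Interferon-stimulated genes rose often but by little. Of 51 tested, 23 were higher and 0 lower, with a median log2 fold change of 0.29, and no member past the threshold exceeded OASL, at 0.93 ± 0.15. IFIT3, an RNA-binding antiviral protein, was at 362, 254 and 332 CPM and then 587, 513 and 544 CPM (log2 fold change 0.79 ± 0.13 (SE), adjusted p = 2.11e-04). ISG20, IFIT2 and OAS3 rose by 0.85 ± 0.09, 0.72 ± 0.13 and 0.54 ± 0.10. ISG15 and MX1, which are often used to mark interferon exposure, did not pass the test, with log2 fold changes of 0.33 ± 0.14 and 0.14 ± 0.08. The guanylate-binding proteins, interferon-inducible GTPases that attack intracellular pathogens, were higher in 5 of 6 cases. GBP1 was at 1.24, 1.45 and 1.87 CPM without LPS and 18.2, 15.9 and 19.98 CPM with LPS (log2 fold change 3.54 ± 0.25 (SE), adjusted p = 1.13e-09), GBP2 rose by 2.92 ± 0.27 and GBP5 by 1.68 ± 0.21. Of 17 interferon regulatory factors, JAKs and STATs, 4 rose, namely STAT5A (1.80 ± 0.13), STAT4 (1.29 ± 0.34), IRF1 (0.70 ± 0.10) and IRF2 (0.40 ± 0.13), or 23.5% against 14.3% of all genes called. The call on IRF2 was lost in 10 of 13 alternative fits, with adjusted p from 0.0275 to 0.19. Of 19 class I antigen presentation genes, 2 rose, the peptide transporter TAP1 (0.70 ± 0.08) and the proteasome activator PSME2 (0.37 ± 0.09), and of 9 class II genes 1 rose, HLA-DRA (0.75 ± 0.24). These are 10.5% and 11.1% of the members, against 14.3% of all genes called. The call on HLA-DRA was lost without a filter, after thinning and on leaving out any 1 WT library, with adjusted p up to 0.122. The list of genes that the study tied to TRAFD1 from expression in blood holds several of these genes, and 16 of its 34 tested members rose and 0 fell, among them PSTPIP2 (2.21 ± 0.12), CD274, which encodes PD-L1 (1.96 ± 0.29), and BATF2 (1.17 ± 0.14).

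Of 26 tested costimulatory, adhesion and pattern-recognition surface genes, 11 rose and 1 fell, ITGAL (-0.58 ± 0.13). Called members were 46.2% of those tested, against 14.3% of all genes. PLAUR is counted both here and among the matrix genes below. ICAM1, the ligand of β2 integrins, was at 1.19, 3.18 and 2.80 CPM and then 50.4, 51.1 and 41.5 CPM (log2 fold change 4.34 ± 0.24 (SE), adjusted p = 1.41e-11). CD83, a marker of activated antigen-presenting cells, went from 12.9, 9.72 and 14.5 CPM to 103, 109 and 99.8 CPM (log2 fold change 3.06 ± 0.13 (SE), adjusted p = 3.38e-13). CD40, the receptor for T-cell help, rose from 27.6, 29.6 and 29.8 CPM to 147, 145 and 129 CPM (log2 fold change 2.28 ± 0.13 (SE), adjusted p = 1.50e-11), and SLAMF7, CD44 and CD80 rose by 4.25 ± 0.25, 2.04 ± 0.11 and 2.87 ± 0.79. CD86, the other ligand of CD28, was near the floor in both groups. Among 17 matrix, protease and coagulation genes, 8 rose and 2 fell. TNFAIP2 had 403, 339 and 349.8 CPM without and 1922, 2159 and 1517 CPM with LPS (log2 fold change 2.36 ± 0.17 (SE), adjusted p = 8.13e-10), PLAUR, the urokinase receptor, rose by 0.97 ± 0.15 and F3, tissue factor, by 0.96 ± 0.25, while SERPINB2, an inhibitor of urokinase, fell, at -1.92 ± 0.39.

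Inflammasome genes, whose products process IL-1β, moved in both directions. Of 12 tested, 2 rose and 3 fell (41.7% called, against 14.3% of all genes). NLRP3, the sensor that leads to cleavage of IL-1β, was at 52.0, 56.6 and 41.9 CPM without LPS and 28.7, 28.7 and 25.9 CPM with LPS, lower in every LPS library (log2 fold change -0.85 ± 0.14 (SE), adjusted p = 1.62e-04). NLRC4 and NLRP1 fell, at -1.03 ± 0.26 and -1.98 ± 0.37, both from under 8 CPM, and MEFV, which encodes pyrin, and CASP4, a sensor of intracellular LPS, rose by 0.97 ± 0.23 and 0.39 ± 0.10. CASP1 had 64.0 CPM and 60.6 CPM (adjusted p = 0.763). Apoptosis regulators included 7 of 30 that rose and 2 that fell (30.0% called, against 14.3% of all genes). Survival genes known as NF-kB targets were among the 7, with BCL2A1 at 3.33, 5.54 and 2.36 CPM and then 27.6, 27.9 and 27.5 CPM (log2 fold change 2.94 ± 0.25 (SE), adjusted p = 2.65e-08), BIRC3, which encodes cIAP2, at 2.88 ± 0.18 and CFLAR, the inhibitor cFLIP, at 0.79 ± 0.10. The pro-apoptotic BH3-only gene BID also rose, by 1.24 ± 0.10, and 2 others of that class, BBC3 and BCL2L11, fell, at -0.58 ± 0.13 and -0.64 ± 0.19.

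Metabolic and oxidant genes were higher in part. Of 27 tested oxidant defence, iron and metal genes, 12 rose and 3 fell. HMOX1, the haem-degrading enzyme and a target of NRF2, was at 15.8, 21.6 and 21.0 CPM without LPS and 223, 219.7 and 208 CPM with LPS (log2 fold change 3.48 ± 0.18 (SE), adjusted p = 4.28e-12). GCLM, a subunit of the enzyme that starts glutathione synthesis, rose from 96.5, 83.2 and 77.4 CPM to 276, 240.1 and 194 CPM (log2 fold change 1.47 ± 0.13 (SE), adjusted p = 6.66e-08). FTH1, the ferritin heavy chain, rose by 1.21 ± 0.08, FTL by 0.39 ± 0.06, and TXNRD1 and NQO1 by 1.03 ± 0.19 and 0.52 ± 0.09. CYBB and NCF1, subunits of the phagocyte oxidase, rose by 1.49 ± 0.17 and 1.20 ± 0.20, and catalase (CAT) fell, at -0.56 ± 0.09. Of 20 immunometabolic enzymes, 9 rose and 1 fell. IL4I1, an amino acid oxidase, was at 5.99, 12.1 and 11.7 CPM and then 83.1, 85.4 and 91.6 CPM (log2 fold change 3.14 ± 0.22 (SE), adjusted p = 6.12e-10), GCH1, which starts tetrahydrobiopterin synthesis, rose by 2.45 ± 0.15, the kynurenine pathway enzyme KYNU by 1.72 ± 0.19, and ACOD1, the itaconate-producing enzyme, by 4.07 ± 0.96 from a mean of 0.104 CPM. PTGS2, cyclooxygenase-2, rose from 2.60, 4.09 and 1.82 CPM to 6.52, 7.27 and 6.17 CPM (log2 fold change 1.27 ± 0.30 (SE), adjusted p = 0.00614).

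Of 14 tested cytosolic heat shock genes, 7 rose and 0 fell. HSPA8, the constitutive HSC70, went from 678, 590.1 and 571 CPM to 1105, 1115 and 1066 CPM (log2 fold change 0.84 ± 0.08 (SE), adjusted p = 1.12e-07). HSP90AA1 was at 1766, 1583 and 1554 CPM and then 2676, 2603 and 2610.4 CPM (log2 fold change 0.69 ± 0.08 (SE), adjusted p = 1.11e-06), and the stress-inducible HSPA1B and HSPA1A, close copies whose reads may be shared, rose by 1.34 ± 0.18 and 0.65 ± 0.19. In the endoplasmic reticulum, 3 of 20 tested genes rose (SDF2L1, CRELD2 and HYOU1, by 0.80 ± 0.16, 0.38 ± 0.09 and 0.34 ± 0.11) and 4 fell (HERPUD1, SEL1L, SYVN1 and XBP1, at -1.09 ± 0.23, -0.52 ± 0.09, -0.43 ± 0.13 and -0.33 ± 0.09). Called members were 35.0% of those tested, against 14.3% of all genes. The 4 that fell include parts of the machinery that removes misfolded proteins, and HSPA5, the chaperone BiP, had 2388 CPM without and 2581 CPM with LPS (adjusted p = 0.528).

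Most listed genes of the integrated stress response fell. This list was written with earlier results of these data known and does not hold every gene of the pathway. ATF3, which rose, was counted above among stimulus-induced transcription factors and not here. In this pathway, kinases that sense amino acid shortage, misfolded protein, haem or double-stranded RNA phosphorylate eIF2α, which favours translation of the transcription factor ATF4, and ATF4 raises genes of amino acid synthesis, transport and tRNA charging. Of 40 tested genes of the response and of amino acid supply, 34 fell and 0 rose (85.0% against 7.26% of all genes lower), with a median log2 fold change of -0.92, and DESeq2 and limma voom also called 34 lower and 0 higher. At an unadjusted p under 0.05 in edgeR, 35 were lower and 1 higher. ATF4 itself was at 1354, 1637 and 1591 CPM in unstimulated cells and 609, 556 and 565 CPM with LPS. The 2 groups are far apart relative to their spread (log2 fold change -1.41 ± 0.10 (SE), adjusted p = 7.05e-10). CHAC1, which degrades glutathione and is a target of ATF4, was at 90.3, 79.5 and 107 CPM and then 3.50, 6.43 and 5.29 CPM, 18.2-fold lower (log2 fold change -4.18 ± 0.20 (SE), adjusted p = 1.37e-12). DDIT3, the factor CHOP, went from 72.9, 83.5 and 88.0 CPM to 32.2, 38.3 and 37.4 CPM (log2 fold change -1.18 ± 0.13 (SE), adjusted p = 1.19e-06). Among amino acid transporters, SLC38A2, which imports neutral amino acids, was at 358, 332 and 382 CPM and then 106, 87.3 and 94.3 CPM (log2 fold change -1.90 ± 0.09 (SE), adjusted p = 1.87e-12), and SLC7A1, SLC7A5, SLC38A1 and SLC3A2 fell, at -1.07 ± 0.09, -1.06 ± 0.18, -0.96 ± 0.11 and -0.69 ± 0.10. Enzymes of serine and one-carbon metabolism were lower as well, PSPH at 48.7, 51.0 and 57.5 CPM and then 15.3, 14.2 and 15.6 CPM (log2 fold change -1.80 ± 0.15 (SE), adjusted p = 1.41e-08), and PSAT1, MTHFD2, SHMT2 and PHGDH at -0.98 ± 0.12, -1.13 ± 0.10, -0.60 ± 0.11 and -0.49 ± 0.10. GPT2, alanine aminotransferase, went from 197, 176 and 222 CPM to 62.5, 55.9 and 69.5 CPM (log2 fold change -1.67 ± 0.11 (SE), adjusted p = 3.22e-10). The tRNA synthetases AARS1, GARS1, MARS1, NARS1 and EPRS1 fell, at -0.88 ± 0.11, -0.83 ± 0.09, -0.75 ± 0.09, -0.58 ± 0.11 and -0.43 ± 0.11. Inhibitors of mTORC1 that ATF4 controls, SESN2 and DDIT4, went from 121, 129 and 155 CPM to 34.6, 30.1 and 37.2 CPM and from 94.6, 101 and 112 CPM to 26.1, 30.8 and 23.9 CPM (log2 fold changes -1.99 ± 0.14 and -1.92 ± 0.12). The 6 members not past the threshold were PPP1R15A, ATF5, SLC7A11, WARS1, ALDH18A1 and SARS1, and PPP1R15A, the phosphatase subunit that ends the response, was the member with a positive value (0.34 ± 0.15). In SCR and KD cells, each with its own unstimulated controls, 33 and 35 of the 40 genes were lower with LPS and 0 higher, with medians of -0.79 and -0.70.

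**Figure D3:**
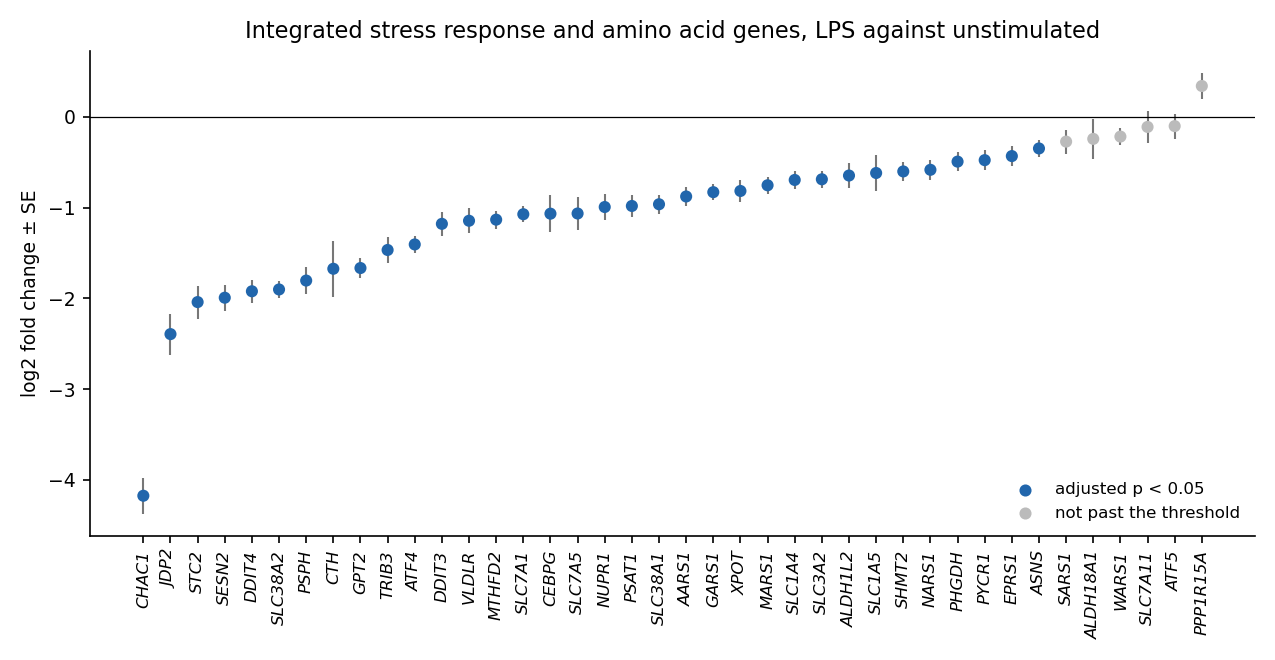
Log2 fold change with LPS in WT cells (points) and its SE (bars) for the 40 tested genes of the integrated stress response and amino acid supply, ordered by value; blue points are past the threshold and grey points are not. The 34 blue points run from -4.18 at CHAC1 to -0.35 at ASNS, and 1 grey point, PPP1R15A, lies above 0.

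The promoter of CHAC1 is shown because it holds a match to the core of the C/EBP-ATF element, the composite site through which ATF4 acts on many of its targets. It was searched as TGATGNAA on both strands, and the match, in capitals and on the reverse strand, begins at position -209 (chr15:40953221-40953520, plus strand, GRCh38.p14, RefSeq).
CHAC1: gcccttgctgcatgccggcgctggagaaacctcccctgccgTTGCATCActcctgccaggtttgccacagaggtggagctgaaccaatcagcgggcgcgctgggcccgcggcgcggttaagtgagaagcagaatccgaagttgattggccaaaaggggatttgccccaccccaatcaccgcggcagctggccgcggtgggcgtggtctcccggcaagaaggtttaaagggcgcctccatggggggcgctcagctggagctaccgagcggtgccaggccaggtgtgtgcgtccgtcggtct
This core was found in 8 of 33 matched promoters of the list (24.2%), and in 1.78% of promoters of tested genes, 4.02% of those of lower and 1.96% of those of higher genes.

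Among growth, lipid and glycolysis genes, the share of called members lay above the 14.3% of all genes in every list but that of replication. Of 25 ribosome biogenesis genes, 11 rose and 0 fell, with NOP16 at 46.6, 48.9 and 42.0 CPM and then 78.1, 74.4 and 72.4 CPM (log2 fold change 0.71 ± 0.10 (SE), adjusted p = 1.37e-05) and BYSL, WDR43 and NOP56 at 0.68 ± 0.13, 0.65 ± 0.11 and 0.61 ± 0.12. Of 29 replication genes, 3 rose, among them CCND1 and RRM2, by 1.67 ± 0.15 and 0.56 ± 0.13, and 0 fell (10.3% called, against 14.3% of all genes). Of 30 mitotic genes, 0 rose and 9 fell, among them PLK1, AURKA, TTK and CKS2, at -0.63 ± 0.12, -0.59 ± 0.09, -0.65 ± 0.14 and -0.67 ± 0.16. MKI67 and CDK1 did not pass the test. In bulk libraries, fewer cells in mitosis and less of these mRNAs per cell cannot be told apart. Cholesterol and fatty acid genes were divided, with 5 of 27 higher and 5 lower, HMGCS1 rising by 0.73 ± 0.12, and the LXR target ABCG1 falling, at -1.65 ± 0.36. Of 27 glycolysis and hypoxia genes, 3 rose (ADM, HIF1A and the lactate exporter SLC16A3, by 1.93 ± 0.62, 0.42 ± 0.11 and 0.66 ± 0.12) and 2 fell (SLC2A3 and HK2, at -0.44 ± 0.13 and -0.92 ± 0.30), or 18.5% against 14.3% of all genes. The call on ADM was lost in limma voom, after thinning and on leaving out any 1 WT library but unstimulated replicate 1, with adjusted p up to 0.155. The call on SLC2A3 was lost without a filter, in the fits on the 6 WT libraries and on leaving out any 1 WT library but unstimulated replicate 1, with adjusted p up to 0.172.

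Of 20 tested long non-coding RNAs, 9 were higher and 1 lower. This list mixes transcripts of inflammation with hosts of small nucleolar RNAs (snoRNAs), so the count is not one of inflammatory transcripts alone. The snoRNA host SNHG15 was among the 9, at 1.05 ± 0.20. MIR3142HG, the host transcript of miR-146a, was at 0.452, 1.54 and 0.400 CPM and then 34.3, 38.8 and 33.8 CPM (log2 fold change 5.67 ± 0.44 (SE), adjusted p = 4.09e-09). MIR155HG, the host of miR-155, went from 7.69, 6.45 and 7.43 CPM to 14.9, 20.4 and 15.4 CPM (log2 fold change 1.23 ± 0.22 (SE), adjusted p = 5.51e-04). LUCAT1 rose by 3.83 ± 0.43 and NEAT1, which scaffolds paraspeckles, by 0.72 ± 0.16. QuantSeq measures the polyadenylated host and not the mature miRNA. The mature 5p arms, from RefSeq on GRCh38.p14, are shown because miR-146a targets TRAF6 and IRAK1, members of the receptor list, and they share no seed (bases 2 to 8, in capitals). The first lies at chr5:160485372-160485393, plus strand, and the second at chr21:25573983-25574006, plus strand.
hsa-miR-146a-5p: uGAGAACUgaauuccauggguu
hsa-miR-155-5p: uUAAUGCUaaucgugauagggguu
IRAK1 had 303 CPM without and 316 CPM with LPS (adjusted p = 0.703), and TRAF6 had 9.48 CPM and 6.37 CPM (adjusted p = 0.117).

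**Figure D4:**
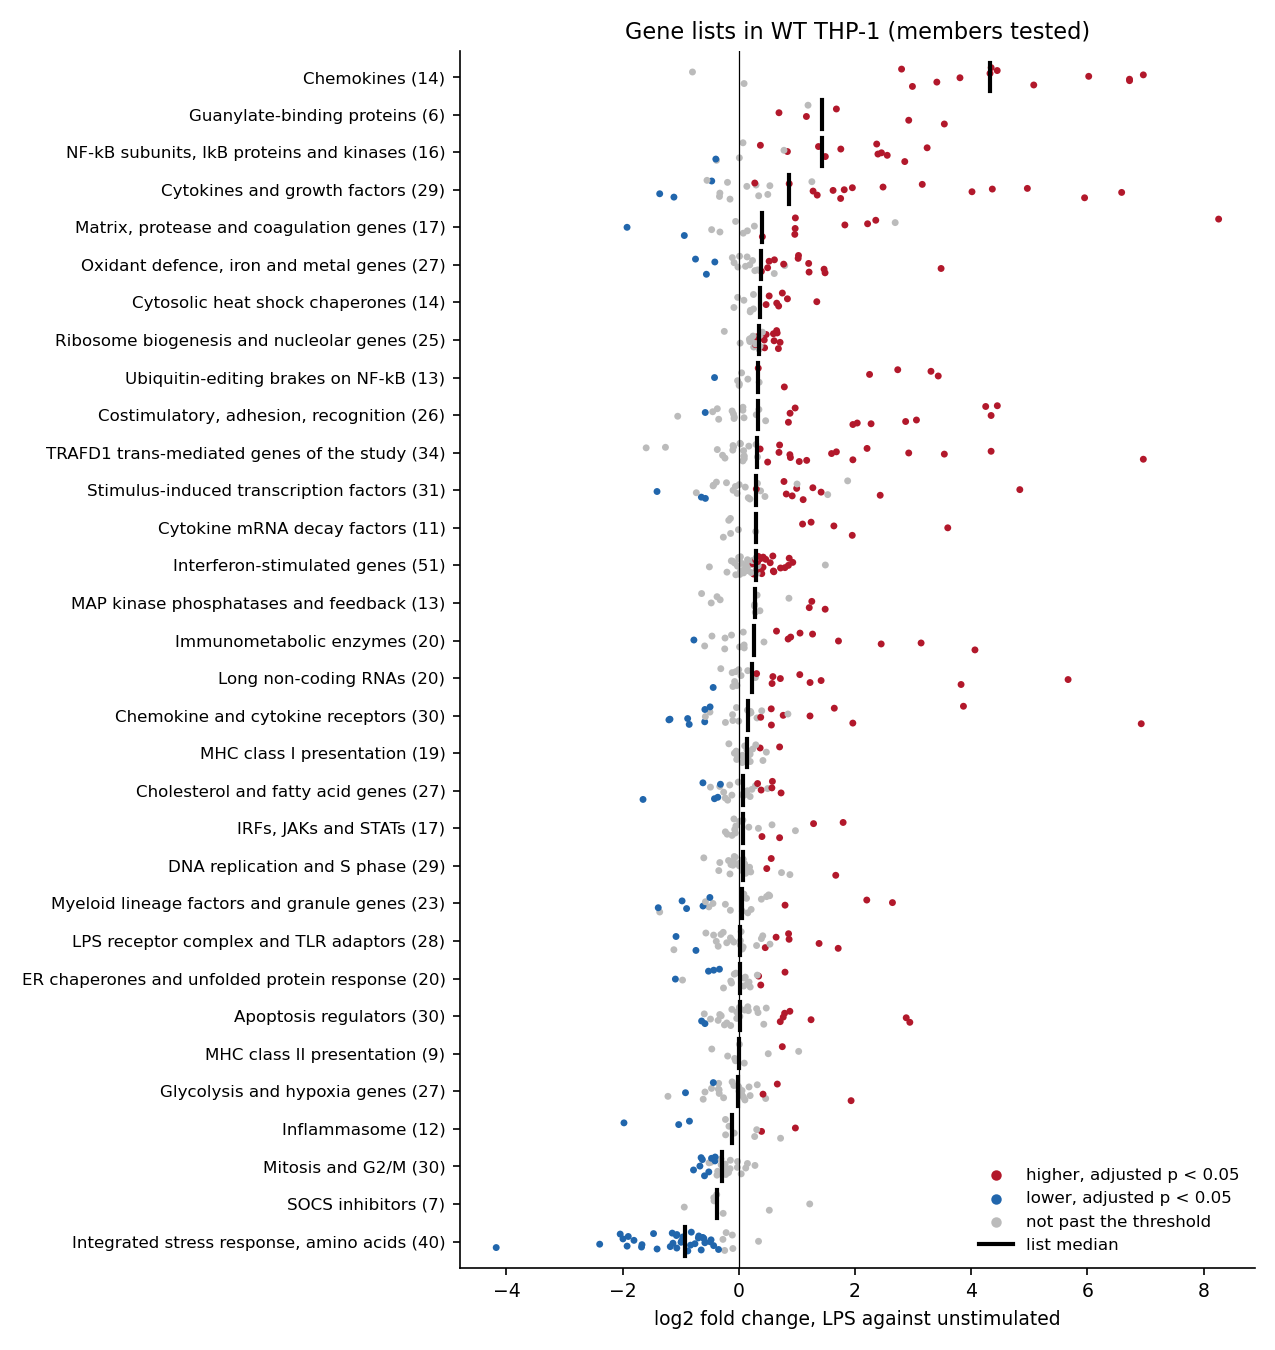
Log2 fold change with LPS in WT cells (horizontal axis) for every tested member of 32 gene lists, ordered by list median (black bars), with the number of members tested in brackets; red and blue points are past the threshold and grey points are not. Chemokines lie highest, with a median of 4.33, and the integrated stress response lowest, with a median of -0.92.

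The last comparison asked whether the response differed when cells had received an siRNA. TRAFD1 was at 20.5 ± 1.99, 23.7 ± 3.38 and 8.67 ± 3.14 CPM (SD, n = 3) in unstimulated WT, SCR and KD cells and at 17.0 ± 4.76, 22.7 ± 4.43 and 14.5 ± 1.12 CPM with LPS, so that in KD with LPS its level lay within the range of WT with LPS. In SCR cells 2869 genes (17.2%) and in KD cells 1912 genes (11.5%) changed with LPS against their own controls. Of the 2380 genes called in WT, 1367 were called in the same direction in SCR (57.4% of the WT and 47.6% of the SCR calls) and 992 in KD (41.7% of the WT and 51.9% of the KD calls). In all 3 conditions, 470 genes were higher and 397 lower.

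The difference of the responses was itself tested. It passed the threshold in 39 genes for SCR against WT (0.234%) and in 60 for KD against WT (0.36%), and both share the WT libraries. Of the 39, 34 were called in WT. Of these, 32 were higher with LPS in WT and in all 32 the response in SCR lay below that in WT, and 2 were lower in WT and lay above the WT response in SCR, IL6R with the opposite sign. Of the 60, 58 were called in WT. Of these, 49 were higher in WT and in all 49 the response in KD lay below that in WT, and 9 were lower in WT and lay above the WT response in KD. In 9 of the 58 the fitted KD response had the opposite sign to that in WT. The WT libraries enter both the call in WT and, with the opposite sign, the difference. Restricting to genes called in WT therefore favours a smaller response with siRNA. How far this shaped these counts was not tested. Entries with near-equal values, such as CCL4L1 with CCL4L2 and CCL3L1 with ENSG00000256515, are counted separately here, although they may share reads. TNFAIP6 passed in both comparisons, with differences of -2.18 ± 0.39 (adjusted p = 0.0128) in SCR and -2.03 ± 0.41 (adjusted p = 0.0355) in KD. CD83 rose by 3.06 on the log2 scale in WT cells and by 1.51 in SCR cells, a difference of -1.55 ± 0.17 (adjusted p = 8.09e-05), and its response in KD differed from WT by -1.45 ± 0.17 (adjusted p = 1.01e-04). RELB rose by 2.37, 0.71 and 1.05 in the same order (SCR minus WT -1.67 ± 0.23, adjusted p = 0.00142). The number for KD rests on single libraries, since it was 1320 without KD unstimulated replicate 1, 200 without WT unstimulated replicate 2 and 22 without KD LPS replicate 6. The direction also changed without KD unstimulated replicate 1, where 72.1% of the differences lay above 0, against 16.7% with all libraries. Without any other single library, this share was 3.7% to 17.4%. For SCR it ran from 18 without WT unstimulated replicate 1 to 82 without WT unstimulated replicate 2.

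**Figure D5:**
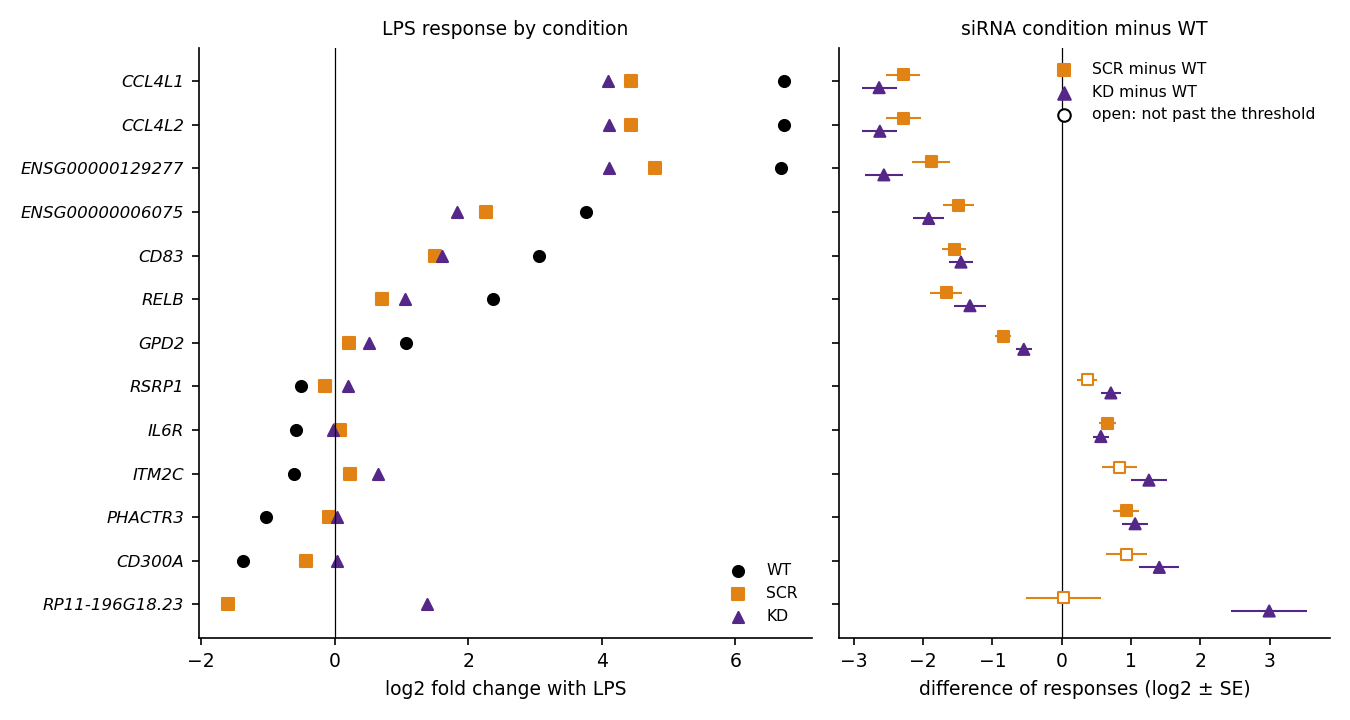
Left, log2 fold change with LPS in WT (circles), SCR (squares) and KD (triangles) for the 13 genes named for a difference from WT, those most significant in each direction among genes called in WT; right, the response in SCR or KD minus that in WT with its SE, open where not past the threshold. In the 7 genes that rose in WT both siRNA conditions lie to the left of WT, and in the 6 that fell they lie to the right of it, except that SCR lies close to WT in RP11-196G18.23.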

How the data were processed

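Counts per gene were deposited by the authors as whole numbers, 1 column per library, and 0 columns were left unused. Per the study's methods and the submitters' processing notes, QuantSeq 3′ libraries were aligned with HISAT to GRCh37 and counted with featureCounts against an annotation reduced to the last 500 bases of each gene, so genes that share 3′ sequence (paralogs, pseudogenes) may share reads. Counts were tested here in R 4.3.3 with edgeR 4.0.16 (quasi-likelihood test, TMM scaling, filterByExpr, 1 mean per group over 18 libraries, which share 1 estimate of spread), with the contrast LPS minus unstimulated in WT cells and Benjamini-Hochberg adjustment over 16678 genes. All adjusted p-values come from this test unless another tool is named, and a gene is called at an adjusted p under 0.05. The SE is the absolute log2 fold change over the square root of F. Responses in SCR and KD were compared with WT by interaction contrasts in the same fit. DESeq2 1.42.0, limma 3.58.1, other scaling, no filter, thinned counts, the 6 WT libraries alone and leaving out each library were tried, and the scripts were tested on simulated data.

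WT libraries held 10094675 to 21900309 counts, and floors cover counting error only. Named genes were the 10 per direction with the smallest adjusted p, the 5 per direction with the largest change at 10 CPM or more in the higher group, the 4 called members of each list with the smallest adjusted p, the 5 per direction with the most significant difference between responses among genes called in WT, and 18 genes fixed by name. The remaining list members with values were picked as examples after their values were seen. The members and gene lists were chosen with earlier results of these data known, and the motifs after the changes had been seen. Of 63677 gene IDs, 55665 could be paired with a symbol, and the others are given by ID. Genes without a symbol could not be placed in a list, so list counts can miss members. Of 25 listed chemokines, 21 were paired with an ID in the count table, and of 30 oxidant defence, iron and metal genes, 29. Promoters and miRNAs were taken from RefSeq tables on GRCh38.p14 and matched by symbol. Gene coordinates are those of GRCh37. Values of a few list members are not reported here, although the members are counted.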

Additional observations from a re-analysis of the deposited data

Results flagged for a closer look

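The LPS response differed between WT cells and cells given an siRNA, by the interaction test in edgeR, in the following genes named for their adjusted p. Values are the log2 response in the siRNA condition minus that in WT. In SCR they were -2.29 for CCL4L1 and -2.28 for CCL4L2, whose reads cannot be told apart, -1.55 for CD83, -1.67 for RELB and -0.85 for GPD2, all of which rose in WT. IL6R (0.66) and PHACTR3 (0.93) fell in WT. In KD the differences were -2.64 for CCL4L1, -2.62 for CCL4L2, -2.57 for ENSG00000129277, -1.92 for ENSG00000006075 and -1.45 for CD83, which rose in WT. They were 1.41 for CD300A, 1.26 for ITM2C, 1.06 for PHACTR3, 2.99 for RP11-196G18.23 and 0.71 for RSRP1, which fell in WT. Both comparisons share the WT libraries and are not independent. The 2 genes given by ID could not be paired with a symbol, so they were counted in no list, even if their genes are listed. With LPS in WT, ENSG00000129277 was at 216, 250 and 200 CPM, beside 229, 259 and 205 CPM for CCL4L2. Whether it shares reads with CCL4L1 and CCL4L2 was not tested, so the 3 entries may not be separate results. Exposure of WT cells to the transfection reagent and the presence of an siRNA cannot be told apart in these differences, since the labels leave the former open.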

How the results depend on the processing

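The count of 2380 genes called in WT was 2338 with RLE scaling, 2400 without a filter, 2626 with DESeq2, 2412 with limma voom, 2197 after thinning, and 2307 with edgeR or 2296 with DESeq2 on the 6 WT libraries. At an adjusted p of at most 0.01 and an absolute log2 fold change over 1 it was 499 (338 higher, 161 lower). Leaving out 1 WT library gave 1696 to 2105, and the share of higher calls ran from 48.1% to 55.8% over these fits. Of 140 named genes, 136 were past the threshold and 125 stayed so in every alternative that gave an adjusted p. Of the 11 that lost the call somewhere, 5 did so in fits that kept all WT libraries (ADM, CD14, HLA-DRA, IRF2 and SLC2A3). IFNB1, which was not called (log2 fold change 0.34), changed sign without WT unstimulated replicate 3 (-0.03) and without WT LPS replicate 5 (-0.25), and lay between -0.25 and 1.44 over the fits without 1 library. The comparisons of responses depended more on the processing. The SCR count of 39 was 241 without a filter and 82 with DESeq2, and 18 to 82 leaving out 1 library, moving by over 1.5 times without any library of either condition but SCR unstimulated replicate 3. The KD count of 60 was 729 without a filter and 256 with DESeq2, and 22 to 1320 leaving out 1 library, moving by over 1.5 times without any but WT unstimulated replicate 3 and KD unstimulated replicate 3. The share of differences above 0 was 7.69% for SCR and 44.8% without a filter, and 16.7% for KD and 73.5% without a filter. With DESeq2 it was 19.5% for SCR and 39.1% for KD. For KD it was also 72.1% without KD unstimulated replicate 1 and 67.3% with the replicate number as a block. The cause was not tested. With the replicate number as a block, the counts were 41 for SCR and 547 for KD, but same-numbered libraries of WT and SCR correlated by 0.16 to 0.26 with LPS and by -0.05 to 0.06 without it, and those of WT and KD by -0.07 to 0.30, so in neither comparison did every pair exceed 0.1 and the numbers were not taken as pairing. Each LPS library of WT correlated best with the SCR library of its own number. No paired analysis was possible because WT LPS (4 to 6) and WT unstimulated libraries (1 to 3) share no replicate numbers. Genes under about 0.3 CPM could not be resolved at this depth.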

Other observations

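Ranked by the change of the group mean in CPM, a choice made after the values were seen, several of the genes that moved most were not counted in any list above. ENSG00000112096, an ID that could not be paired with a symbol, went from 49.7, 48.3 and 52.7 CPM to 1335, 1410 and 1205 CPM (log2 fold change 4.71 ± 0.12 (SE), adjusted p = 5.74e-17). Without a symbol it could not be assigned to a list, even if its gene is a listed one. WTAP, a subunit of the RNA m6A methyltransferase complex, went from 193 ± 16.0 to 619 ± 23.1 CPM (SD, n = 3; log2 fold change 1.68 ± 0.09 (SE), adjusted p = 5.90e-12). SQSTM1, the autophagy receptor p62, went from 195 ± 21.5 to 612 ± 11.8 CPM (SD, n = 3; log2 fold change 1.65 ± 0.08 (SE), adjusted p = 4.28e-12), and PPIF, mitochondrial cyclophilin D, from 157 ± 11.9 to 462 ± 48.1 CPM (log2 fold change 1.56 ± 0.10 (SE), adjusted p = 1.91e-10). CD70, the ligand of CD27, varied more among unstimulated libraries, at 530, 1382 and 856 CPM, and was at 1772 CPM on average with LPS (log2 fold change 0.94 ± 0.26 (SE), adjusted p = 0.0154). On the other side, TSC22D3, the glucocorticoid-induced leucine zipper protein, fell from 585 ± 90.7 to 203 ± 4.09 CPM (log2 fold change -1.53 ± 0.13 (SE), adjusted p = 3.90e-08), TARS1, another tRNA synthetase, from 395 ± 69.4 to 165 ± 25.6 CPM (log2 fold change -1.26 ± 0.15 (SE), adjusted p = 2.96e-06), and the histone variant gene H2AZ1 from 2489.5 ± 186 to 1922 ± 50.6 CPM (log2 fold change -0.37 ± 0.08 (SE), adjusted p = 0.00217).

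Gene classes differed in direction. Of 12490 tested protein-coding genes, 930 rose and 1116 fell, and of 1935 pseudogenes 124 rose and 13 fell (16.4% and 7.08% called, against 14.3% of all genes). Among mitochondrial transcripts, 7 of 22 tRNAs and 2 of 2 rRNAs rose, beside the higher mitochondrial share of the LPS libraries. FTH1P10, a processed pseudogene of the ferritin heavy chain, went from 1459 ± 222 to 3178 ± 95.3 CPM, beside FTH1, with which it may share reads. ATF4P3 likewise fell with ATF4 (log2 fold change -1.67 ± 0.12 (SE), adjusted p = 1.28e-09).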
